A study of Bos taurus with 16 samples.

Results

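The genes described here encode proteins of the mitochondrial ribosome, and were taken as all genes whose symbol in the array's annotation starts with MRPL (large subunit) or MRPS (small subunit) followed by a digit. They number 67 of the 9155 genes named on the array, 43 of them MRPL and 24 MRPS. MRPS12 is not named by the annotation used here. A gene is represented by its probe set, a group of short probes read as 1 signal, with the highest mean over the 16 arrays.

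The study used theca interna cells, which form the layer of the ovarian follicle wall that makes androgens, and read their RNA on Affymetrix bovine GeneChip arrays. The cells came from slaughterhouse ovaries of adult cattle, were pooled from about 50 follicles of 4 to 6 mm, and were kept for 6 days in serum-free primary culture. From day 3 to day 6 they received no hormone (control), luteinising hormone at 160 pg/ml (LH), bone morphogenetic protein 6 at 10 ng/ml (BMP6), or both (LH+BMP6). Each of the 4 groups holds 4 arrays. By the labels there were 4 culture experiments on separate ovary batches, but they do not state which array came from which experiment. BMP6 is a growth factor of the ovarian follicle, and LH is the pituitary hormone that drives theca androgen synthesis. The comparisons ask what BMP6 does without LH (BMP6 against control) and with it (LH+BMP6 against LH), and what LH does in each setting.

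The mitochondrial ribosome translates the few messages of the mitochondrial genome, which encode core subunits of the respiratory chain. Its RNAs are transcribed inside the organelle, whereas all its proteins are encoded in the nucleus, made in the cytosol and imported. Part of the proteins have a bacterial counterpart and the rest were added during the evolution of mitochondria. In steroid-producing cells such as theca cells, mitochondria also carry out the opening step of steroid synthesis, the cleavage of the cholesterol side chain.

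Values are log2 signals, so a difference of 1 is a 2-fold change, and changes are given ± SE from limma with n = 4 arrays a group. A gene is called where its adjusted p (Benjamini-Hochberg, over all 24016 probe sets tested) is under 0.05. Signals are relative to the whole array, and in bulk RNA a smaller number of cells of one type cannot be told apart from less RNA per cell. All 67 genes had a mean signal above the 40th percentile of all probe sets (5.43), so none was near the bottom of the scale. Their means ran from 6.21 for MRPS28 to 10.43 for MRPL27, with a median of 8.54 against 7.42 over all named genes. The SD within a group, pooled over the groups, had a median of 0.10 among the 67 genes and was largest for MRPL15, at 0.25.

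The arrays had like overall levels, with medians over all probe sets between 6.10 and 6.16. The mean of 9 probe sets for spiked hybridisation controls was 8.66 to 8.71 on LH replicate 1 and control replicates 1 and 3, the 3 low-spike arrays, and 9.84 to 10.17 on the 13 others. The summed linear signal of 7 theca markers (INSL3, CYP17A1, STAR, CYP11A1, HSD3B1, LHCGR and NR5A1) was 21400 to 27800 in control and 1730 to 2510 with BMP6, and 6 of the 7 fell in BMP6 against control and 7 in LH+BMP6 against LH. That of 5 leukocyte markers was 733 to 754 in control, 449 to 849 with LH, 842 to 1470 with BMP6 and 1050 to 1450 with both, with 1 of 5 and 4 of 5 called higher. That of 6 pericyte and fibroblast markers was 12500 to 18200 in control and 20400 to 25400 with BMP6, with 2 of 6 called higher in each comparison and 1 lower with LH. Of the 5 granulosa, 6 endothelial and 3 red blood cell markers, 0 were called by limma in either comparison. The 3 prime minus 5 prime signal of the GAPDH control, a sign of RNA quality, was 0.29 to 0.41 in control, 0.15 to 0.41 with LH, 0.18 to 0.27 with BMP6 and 0.11 to 0.16 with both. That of the actin control was larger, at 1.69 to 2.49 in control and 1.91 to 2.31 with LH. It was 1.56 to 2.21 with BMP6 and 1.39 to 2.00 with both. The part of the cell markers and of RNA quality in the results that follow was not tested.

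BMP6 lowered the transcripts of the mitochondrial ribosome broadly and by small steps. In BMP6 against control, 43 of the 67 genes fell and 0 rose, where 15.5% of all named genes fell and 9.31% rose. Among named genes at or above the 40th percentile of signal, where all 67 lie, 19.3% fell. The median change of the 67 genes was -0.28, a 1.21-fold lower signal, beside a median of -0.02 over all named genes and 0.01 over all probe sets. Of the 67, 62 had a change below 0, and no gene reached a 2-fold change. On 46 of the 67 genes all 4 BMP6 arrays lay below all 4 control arrays, which was the case for 19.4% of all named genes.

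With LH present, genes of the mitochondrial ribosome fell as well. In LH+BMP6 against LH, 32 of the 67 genes fell and 0 rose, where 15.5% of all named genes fell and 11.7% rose, and 18.8% of those at or above the 40th percentile of signal fell. The median change was -0.22, a 1.16-fold lower signal, beside -0.03 over all named genes, and 61 genes had a change below 0. On 32 genes the arrays did not overlap, against 16.5% of all named genes. Taking the 8 arrays with BMP6 against the 8 without, 26 of the 67 genes lay wholly lower, against 10.7% of all named genes.

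The median signal over the 67 genes, taken array by array, was 8.60 to 8.74 in control, 8.63 to 8.72 with LH, 8.23 to 8.34 with BMP6 and 8.37 to 8.38 with LH+BMP6. The arrays with BMP6 thus lay below those without it on this summary, with no overlap.

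**Figure D1:**
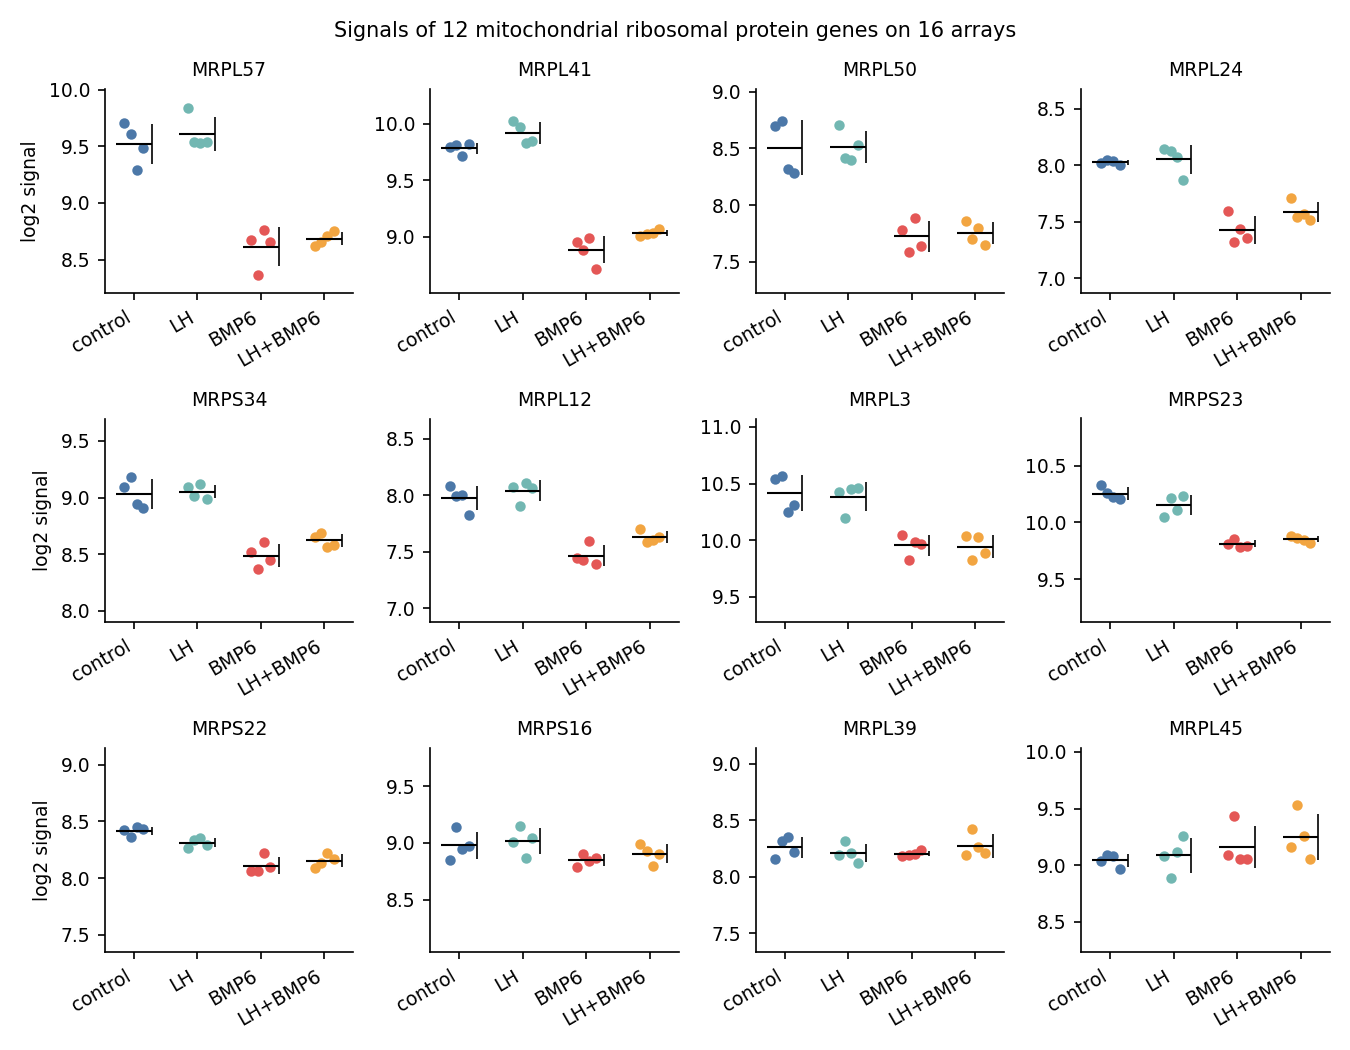
Log2 signal (vertical axis, 1.8 units in every panel) of 12 mitochondrial ribosomal protein genes on the 16 arrays, by group. Points are arrays, the horizontal bar is the group mean and the vertical bar is ± 1 SD (n = 4); MRPL57, MRPL41 and MRPL50 drop with BMP6 with and without LH, whereas the groups of MRPL39 and MRPL45 overlap.

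The 3 largest falls were in proteins of the large subunit that have no bacterial counterpart. MRPL57, one of its smallest proteins, had signals of 9.70, 9.60, 9.29 and 9.48 on the control arrays and 8.67, 8.36, 8.76 and 8.65 with BMP6. Its signals were 9.84, 9.54, 9.53 and 9.54 with LH and 8.62, 8.65, 8.71 and 8.75 with LH+BMP6. All 8 arrays with BMP6 were thus lower than all 8 without. The change was -0.91 ± 0.10 without LH (1.88-fold lower, adjusted p = 1.27e-05) and -0.93 ± 0.10 with LH (1.90-fold lower, adjusted p = 9.34e-06). A dimmer probe set of MRPL57, not used above, had smaller changes, of -0.35 ± 0.11 (adjusted p = 0.0395) and, uncalled with LH, -0.31 ± 0.11 (adjusted p = 0.0641).

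MRPL41, which is also known to bind the survival factor BCL2, read 9.79, 9.82, 9.71 and 9.82 in control and 8.95, 8.89, 8.99 and 8.72 with BMP6. With LH it read 10.02, 9.97, 9.83 and 9.85, and with both hormones 9.01, 9.02, 9.03 and 9.07. The arrays of each group lie close together, and the gap between those with and without BMP6 is wider than any spread within a group. The fall was -0.90 ± 0.07 without LH (1.86-fold, adjusted p = 2.63e-07) and -0.88 ± 0.07 with LH (1.85-fold, adjusted p = 3.47e-07), the smallest adjusted p values among the 67 genes.

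MRPL50 read 8.70, 8.74, 8.32 and 8.28 in control, 7.78, 7.59, 7.88 and 7.64 with BMP6, 8.71, 8.42, 8.40 and 8.53 with LH, and 7.86, 7.70, 7.80 and 7.65 with both. Its control arrays were more scattered than those of MRPL41, but the lowest of them was still above the highest BMP6 array. MRPL50 fell by 0.78 ± 0.11 without LH (1.72-fold, adjusted p = 0.000116) and by 0.76 ± 0.11 with LH (1.69-fold, adjusted p = 0.000132).

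MRPL24, MRPL23 and MRPL4, large-subunit proteins that line or flank the exit tunnel of the growing peptide, fell in both comparisons. MRPL24, at the tunnel exit, read 8.02, 8.04, 8.04 and 7.999 in control and 7.60, 7.33, 7.44 and 7.35 with BMP6, and 8.14, 8.13, 8.08 and 7.87 with LH and 7.71, 7.55, 7.57 and 7.51 with both. Neither pair of groups overlapped, and MRPL24 fell by 0.60 ± 0.08 (adjusted p = 8.04e-05) and 0.47 ± 0.08 (adjusted p = 0.000546). MRPL23, also at the exit, read 9.95, 9.98, 10.01 and 9.91 in control and 9.35, 9.25, 9.62 and 9.60 with BMP6. It fell by 0.51 ± 0.09 (adjusted p = 0.000585) and, with LH, by 0.43 ± 0.09 (adjusted p = 0.00201), and the other probe sets of MRPL23 gave falls of 0.43 and 0.46 without LH. MRPL4, in the tunnel wall, fell by 0.47 ± 0.10 (adjusted p = 0.00216) and 0.48 ± 0.10 (adjusted p = 0.0017). MRPL22, another tunnel protein, was not called, at -0.07 ± 0.07 (adjusted p = 0.547) and -0.13 ± 0.07 (adjusted p = 0.233).

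The stalk and its base, where the GTP-driven translation factors dock, are made with MRPL10, MRPL11 and MRPL12, and these genes fell in both comparisons. MRPL12, which has also been reported to bind the mitochondrial RNA polymerase, read 8.08, 7.99, 8.01 and 7.83 in control and 7.45, 7.43, 7.60 and 7.39 with BMP6. With LH it read 8.07, 7.90, 8.11 and 8.06, and with both 7.70, 7.58, 7.60 and 7.63. Again no array with BMP6 reached the lowest array without it. The falls of MRPL12 were 0.51 ± 0.08 (adjusted p = 0.00018) and 0.41 ± 0.08 (adjusted p = 0.000949). MRPL11 fell by 0.51 ± 0.08 (adjusted p = 0.000198) and 0.37 ± 0.08 (adjusted p = 0.00205). MRPL10 fell by 0.54 ± 0.12 (adjusted p = 0.00341) and 0.49 ± 0.12 (adjusted p = 0.00635), and its LH replicate 2, at 8.63, stood well below the other LH arrays (9.14 to 9.18).

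MRPL3, MRPL2, MRPL16 and MRPL27, whose bacterial counterparts lie near the peptidyl transferase centre, where the peptide bond is made, fell in both comparisons. MRPL3, which is mutated in some patients with mitochondrial disease, read 10.54, 10.57, 10.25 and 10.31 in control and 10.05, 9.82, 9.98 and 9.96 with BMP6, and fell by 0.47 ± 0.09 (adjusted p = 0.00122). With LH it fell by 0.44 ± 0.09 (adjusted p = 0.00171). MRPL2 fell by 0.34 ± 0.09 (adjusted p = 0.0104) and 0.43 ± 0.09 (adjusted p = 0.00189), and MRPL16 by 0.24 ± 0.06 (adjusted p = 0.0123) and 0.25 ± 0.06 (adjusted p = 0.00762). MRPL27, the brightest of the 67 genes, read 10.62, 10.57, 10.50 and 10.52 in control and 10.28, 10.36, 10.26 and 10.22 with BMP6, and fell by 0.27 ± 0.07 (adjusted p = 0.0111). With LH its fall of 0.21 ± 0.07 (adjusted p = 0.0421) lost the call without LH replicate 1 or 2 or LH+BMP6 replicate 3 or 4, at adjusted p values of 0.0913 to 0.131. MRPL9, a bright gene for a large-subunit protein outside that centre, fell by 0.47 ± 0.08 (adjusted p = 0.000562) and 0.41 ± 0.08 (adjusted p = 0.00157). Without the 3 low-spike arrays, BMP6 against control was not called for MRPL2 (adjusted p = 0.121), MRPL16 (0.0917) or MRPL27 (0.0819).

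The small subunit, which binds the message and reads its codons, gave its largest falls in proteins that have no bacterial counterpart. MRPS34, mutated in some families with Leigh syndrome, read 9.09, 9.18, 8.95 and 8.90 in control and 8.52, 8.37, 8.61 and 8.45 with BMP6, and 9.09, 9.02, 9.12 and 8.99 with LH and 8.65, 8.69, 8.57 and 8.58 with both. It fell by 0.55 ± 0.08 (adjusted p = 9.37e-05) and 0.43 ± 0.08 (adjusted p = 0.00059), with no overlap. A dimmer probe set of MRPS34 was not called, at -0.0007 ± 0.10 and -0.14 ± 0.10, so the 2 probe sets of this gene disagree. MRPS35 fell by 0.45 ± 0.10 (adjusted p = 0.00336) and 0.53 ± 0.10 (adjusted p = 0.000867), and its other probe set fell by 0.35 ± 0.11 (adjusted p = 0.0308) and was uncalled with LH (-0.24 ± 0.11, adjusted p = 0.13). MRPS26 fell by 0.45 ± 0.08 (adjusted p = 0.00133) and 0.43 ± 0.08 (adjusted p = 0.00151). MRPS23 was the most tightly grouped, with 10.33, 10.26, 10.23 and 10.20 in control against 9.81, 9.86, 9.79 and 9.79 with BMP6, and fell by 0.44 ± 0.06 (adjusted p = 5.25e-05) and 0.30 ± 0.06 (adjusted p = 0.00123).

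Other small-subunit genes had smaller changes, and some were called in 1 comparison or in neither. MRPS22, a disease gene in humans, read 8.42, 8.36, 8.45 and 8.43 in control and 8.06, 8.06, 8.22 and 8.10 with BMP6 and fell by 0.31 ± 0.06 (adjusted p = 0.00243). With LH its change of -0.16 ± 0.06 was not called (adjusted p = 0.0862), although the LH+BMP6 arrays (8.09, 8.13, 8.23 and 8.17) lay below the LH arrays (8.27, 8.34, 8.36 and 8.29). MRPS18B, 1 of several homologues of a single bacterial protein, fell by 0.34 ± 0.09 (adjusted p = 0.0106) and 0.38 ± 0.09 (adjusted p = 0.00468), the first losing its call without the 3 low-spike arrays (adjusted p = 0.0995). Its relative MRPS18A was not called, at -0.10 ± 0.08 and -0.11 ± 0.08. MRPS27, a protein of the pentatricopeptide repeat family that binds RNA, fell by 0.34 ± 0.10 (adjusted p = 0.0295) and 0.43 ± 0.10 (adjusted p = 0.00591). The former call was lost without any of control replicates 1, 2 and 4 and BMP6 replicates 2, 3 and 4, at 0.0591 to 0.0909. MRPS16 and MRPS7, both mutated in rare human disease, were not called in either comparison, with changes of -0.13 ± 0.08 and -0.11 ± 0.08 for MRPS16 and -0.19 ± 0.07 and -0.14 ± 0.07 for MRPS7.

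Counted by subunit, 29 of 43 MRPL and 14 of 24 MRPS genes fell in BMP6 against control, with median changes of -0.32 and -0.25. In LH+BMP6 against LH, 25 of 43 and 7 of 24 fell, with medians of -0.25 and -0.18. Both subunits were above the 15.5% of all named genes that fell in each comparison, and the difference between the subunits was not tested. The names are historical: MRPS30 and MRPS18A sit in the large subunit in known structures, and MRPS36 has been assigned to the 2-oxoglutarate dehydrogenase complex. MRPS30 fell by 0.26 ± 0.08 (adjusted p = 0.0248), which was no longer called (adjusted p 0.0539 to 0.0751) on leaving out control replicate 2 or 3 or BMP6 replicate 3 or 4, and was uncalled with LH (-0.17 ± 0.08). Leaving out MRPS36, itself uncalled (-0.26 ± 0.11 and -0.22 ± 0.11), gave 43 and 32 of 66.

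By the numbers in their names, 37 genes (MRPL up to 36 and MRPS up to 21) have a bacterial counterpart and 30 are specific to mitochondria. In BMP6 against control 24 of the 37 and 19 of the 30 fell, with medians of -0.28 and -0.27. With LH, 19 of 37 and 13 of 30 fell, with medians of -0.22 and -0.19. The falls were also seen at both ends of the signal range, in 24 of the 34 brighter and 19 of the 33 dimmer genes without LH and in 19 and 13 with LH. Of all named genes, 15.5% fell in each comparison. Among named genes at or above the 40th percentile of signal, 19.3% fell without LH and 18.8% with it.

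**Figure D2:**
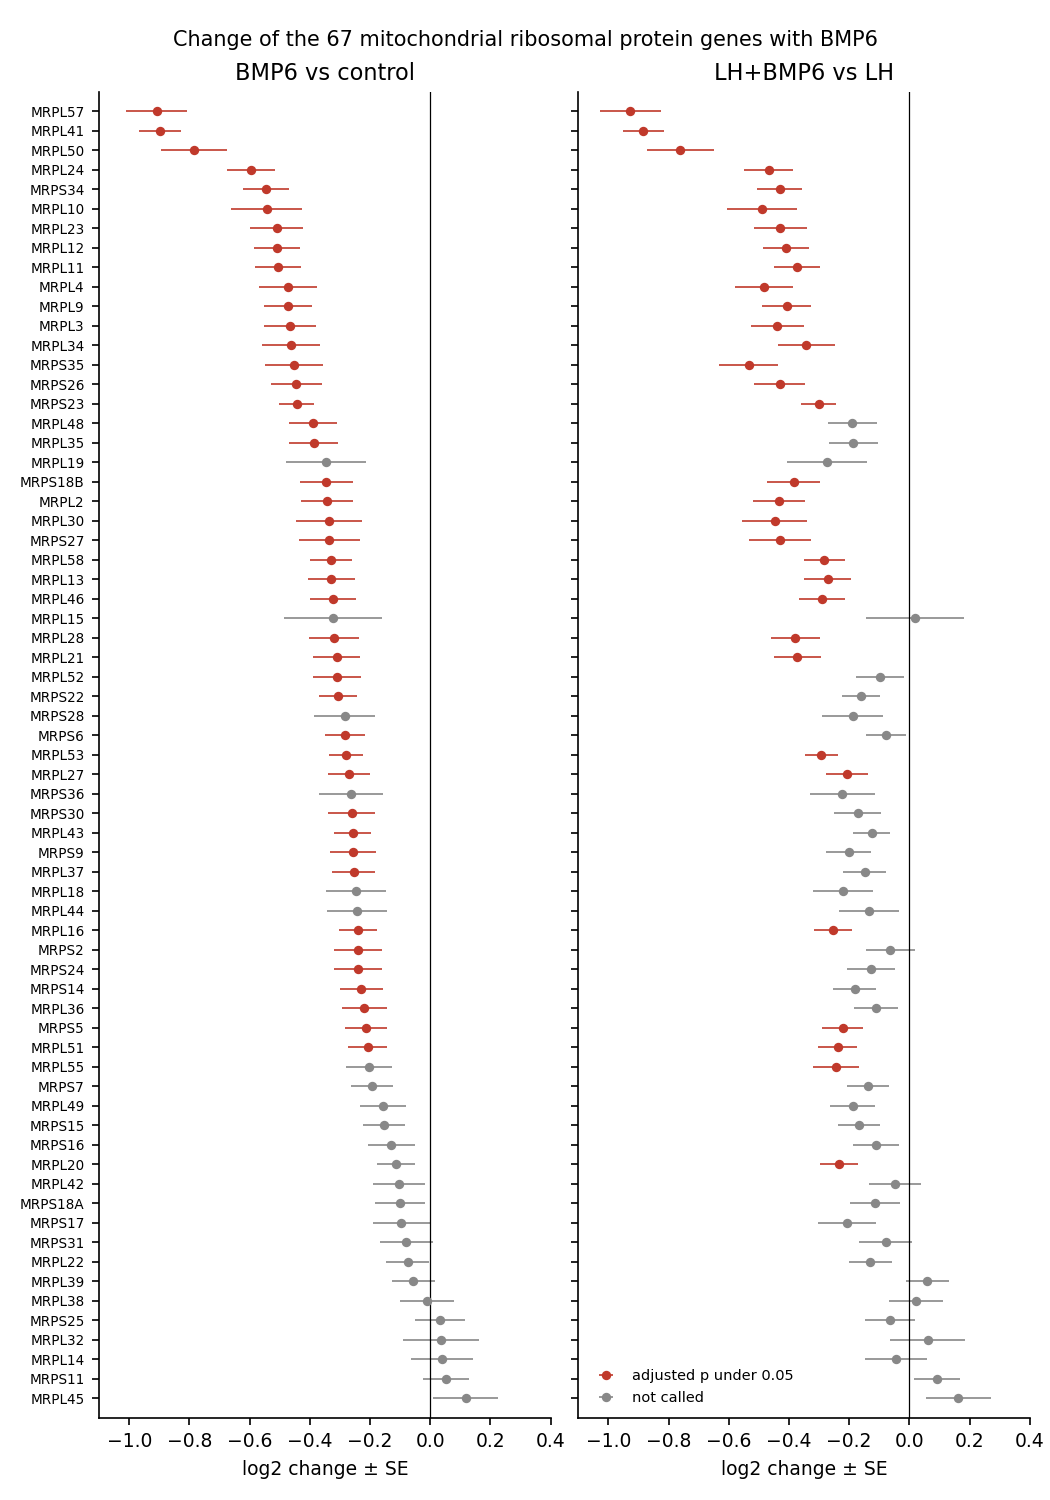
Log2 change ± SE (n = 4 arrays a group) of each of the 67 genes in BMP6 against control (left) and LH+BMP6 against LH (right), ordered by the left panel. Red points are called at an adjusted p under 0.05 (43 on the left, 32 on the right, all below 0) and grey points are not.

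Not every gene took part. A change above 0 without LH was measured for 5 genes, none of them called: MRPS25 (0.03 ± 0.08), MRPL32 (0.04 ± 0.13), MRPL14 (0.04 ± 0.10), MRPS11 (0.05 ± 0.08) and MRPL45 (0.12 ± 0.11). MRPL45, which anchors the ribosome at the inner membrane, read 9.04, 9.09, 9.08 and 8.96 in control and 9.09, 9.44, 9.06 and 9.06 with BMP6. With LH it read 9.08, 8.89, 9.12 and 9.26, and with both 9.16, 9.53, 9.26 and 9.05. Its groups overlap, and replicate 2 is the highest array in both groups with BMP6. The 95% interval of its change ran from -0.11 to 0.34 without LH and from -0.06 to 0.39 with it.

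MRPL39, which resembles threonyl-tRNA synthetases, read 8.15, 8.32, 8.35 and 8.22 in control and 8.18, 8.20, 8.20 and 8.24 with BMP6, a change of -0.06 ± 0.07 (adjusted p = 0.677), and 0.06 ± 0.07 with LH. MRPL32, which is matured by the m-AAA protease before it joins the ribosome, overlapped in all groups, as did MRPL38, at -0.01 ± 0.09 and 0.02 ± 0.09. MRPL44, an RNase III-like protein mutated in human cardiomyopathy, was uncalled at -0.24 ± 0.10 (adjusted p = 0.106) although its control arrays (8.36, 8.19, 8.11 and 8.22) did not overlap the BMP6 arrays (8.06, 8.04, 7.84 and 7.98). MRPL15 had the widest scatter, with 7.27, 7.15, 6.72 and 6.39 under LH, and was uncalled at -0.32 ± 0.16 and 0.02 ± 0.16.

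The dimmest of the 67 genes was MRPS28, followed by MRPL46. MRPL46 read 6.41, 6.67, 6.54 and 6.53 in control and 6.21, 6.21, 6.24 and 6.17 with BMP6 and fell by 0.32 ± 0.08 (adjusted p = 0.00616), and by 0.29 ± 0.08 with LH (adjusted p = 0.0116). MRPS28 was the uncalled gene nearest to the threshold, at -0.28 ± 0.10 (adjusted p = 0.0601), and its other probe set fell by 0.34 ± 0.10 (adjusted p = 0.024). MRPS2 lay just inside, at -0.24 ± 0.08 (adjusted p = 0.0489), and lost its call without any of 6 single arrays (control replicates 1, 2 and 3 and BMP6 replicates 1, 3 and 4), with adjusted p values of 0.0685 to 0.173.

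How many calls were made depended on the arrays included. Of the 43 calls without LH, 32 held without any single array, 25 without the 3 low-spike arrays and 24 under both conditions, and 20 also held when each replicate number was left out of all 4 groups in turn. The count of genes that fell was 33 to 41 when 1 array was left out, 25 without the 3 low-spike arrays, and 36, 26, 28 and 25 without replicates 1, 2, 3 and 4 of all groups. No gene rose in any of these, and the median change stayed between -0.30 and -0.26. Of the 32 calls with LH, 26 held without any single array, 26 without the 3 low-spike arrays and 25 under both, and 19 also held without each replicate number. Among the genes named here, the calls of MRPL2, MRPL16, MRPL27, MRPL30, MRPS2, MRPS6, MRPS18B, MRPS27 and MRPS30 without LH were lost without the 3 low-spike arrays. Their adjusted p values then ran from 0.0699 for MRPS6 to 0.312 for MRPS2. With LH those of MRPL27 (0.116) and MRPL55 (0.0892) were lost.

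BMP6 against control and LH+BMP6 against LH share no array, but by the labels the study held 4 culture experiments. The 2 comparisons may therefore share cell pools and are not taken as independent. In both, 30 genes fell, which is 69.8% of the 43 and 93.8% of the 32, 45 fell in at least 1, and 22 in neither. Below 0 in both were 59 genes. Across the 67 genes the 2 changes correlated at r = 0.90 (Spearman's rho 0.83), a description across genes that were read on the same arrays and are not independent. In each comparison 15.5% of all named genes fell, but their overlap and correlation were not computed. The agreement between the comparisons is therefore not shown to be particular to the 67 genes. Genes called only without LH numbered 13, among them MRPL35 (-0.39 ± 0.08 without LH, -0.19 ± 0.08 with it), MRPL48 (-0.39 ± 0.08, -0.19 ± 0.08), MRPL52 (-0.31 ± 0.08, -0.10 ± 0.08) and MRPS6 (-0.28 ± 0.07, -0.08 ± 0.07). Called only with LH were MRPL20 (-0.11 ± 0.06 without LH, -0.23 ± 0.06 with it, lost at an adjusted p of 0.0503 without LH+BMP6 replicate 4) and MRPL55 (-0.20 ± 0.08, -0.24 ± 0.08). A dimmer probe set of MRPL20 was called the other way about, without LH (-0.30 ± 0.10, adjusted p = 0.0433) and not with it (-0.21 ± 0.10, adjusted p = 0.147). The MRPL55 call was lost without any of LH replicates 1 and 2 and LH+BMP6 replicates 1, 3 and 4, at 0.0572 to 0.0877.

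Whether the effect of BMP6 differed with LH was tested gene by gene as the interaction of LH and BMP6. By limma 0 of the 67 genes were called, and 0.0% of all named genes, with 1 of the 67 at an unadjusted p under 0.05. The values of the interaction ran from -0.12 for MRPL20 to 0.34 for MRPL15, with a median of 0.04 and a median SE of 0.11. The genes called in only 1 comparison are therefore not shown to differ between the settings.

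**Figure D3:**
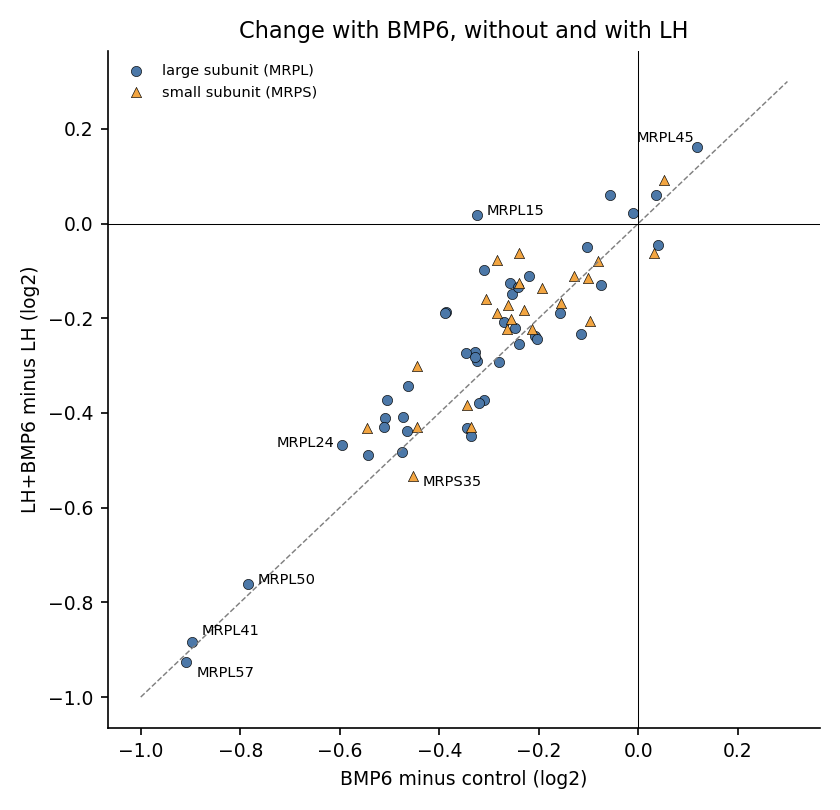
Log2 change with BMP6 in the absence (horizontal axis) and presence (vertical axis) of LH for the 67 genes, circles for MRPL and triangles for MRPS. The dashed line marks equal change; the points follow it (r = 0.90), with MRPL57, MRPL41 and MRPL50 at the lower end and MRPL15 away from it.

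LH on its own left these transcripts close to control. In LH against control 0 of the 67 genes were called by limma, where 0.0218% of all named genes were, and 1 of the 67 had an unadjusted p under 0.05. The changes ran from -0.22 for MRPL15 to 0.18 for MRPL30, with a median of -0.01. For 66 of the 67 genes the 95% interval of the change lay within 0.5 log2 units of 0, the exception being MRPL15 (from -0.57 to 0.12). That bound is wide, as 43 of the 67 genes met it in BMP6 against control and 45 in LH+BMP6 against LH. Meeting it therefore does not by itself set LH apart from BMP6. The median lower and upper limits of the intervals in LH against control were -0.19 and 0.17. The gene with the unadjusted p under 0.05 was MRPS6, which encodes a small-subunit protein, at -0.15 ± 0.07 (adjusted p = 0.914). Its control arrays, at 9.17, 9.19, 9.17 and 9.08, lay just above the LH arrays, at 8.98, 8.99, 9.07 and 8.99.

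In LH+BMP6 against BMP6 0 of the 67 genes were called by limma, as were 0.0% of all named genes, and 2 had an unadjusted p under 0.05. The changes lay between -0.09 and 0.16, with a median of 0.04, and all 67 intervals lay within the same wide bound of 0.5 log2 units. In LH against control the arrays of 3 of the 67 genes lay wholly lower and those of 1 wholly higher. In LH+BMP6 against BMP6 these counts were 0 and 1. The share over all named genes was not counted for these comparisons. The gene wholly higher in both was MRPL41, by 0.13 ± 0.07 over control (adjusted p = 0.92) and 0.15 ± 0.07 over BMP6 (adjusted p = 1.0), and neither was called. The other gene with an unadjusted p under 0.05 here was MRPL12, at 0.16 ± 0.08 (adjusted p = 1.0).

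**Figure D4:**
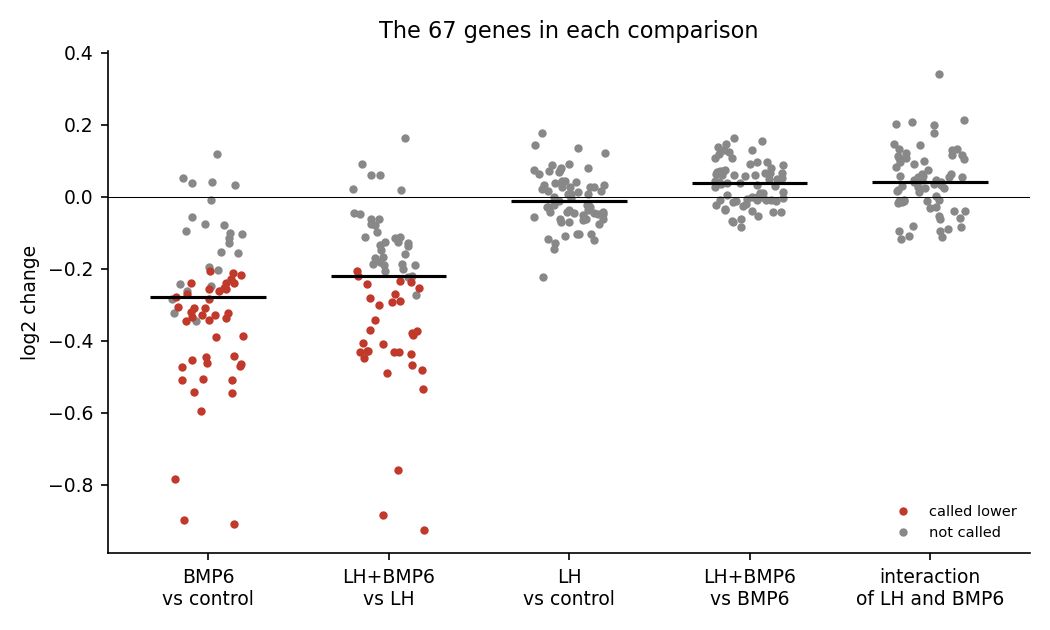
Log2 changes of the 67 genes (points, spread sideways only for legibility) in the 5 comparisons, with the median as a black bar. Red points are called lower; they occur in the 2 comparisons of BMP6, whereas the 2 comparisons of LH and the interaction hold 0 called genes by limma and lie around 0.

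Proteins of the mitochondrial ribosome that carry other names were measured for 5 genes, of which 2 fell in each comparison and 3 were uncalled. Beside them, 15.5% of all named genes fell in each comparison. OXA1L, listed with the 5, is the insertase that receives the new peptides at the inner membrane and not a ribosomal protein. It fell by 0.50 ± 0.09 and 0.38 ± 0.09. GADD45GIP1, a large-subunit protein, fell by 0.53 ± 0.08 (adjusted p = 0.000157) and 0.47 ± 0.08 (adjusted p = 0.000417). PTCD3, a pentatricopeptide repeat protein of the small subunit, fell by 0.40 ± 0.08 (adjusted p = 0.00143) and 0.45 ± 0.08 (adjusted p = 0.000467). DAP3, a GTP-binding protein of the small subunit, was uncalled at 0.02 ± 0.07 and 0.05 ± 0.07.

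The factors that work with the mitochondrial ribosome fell in part. Of 10 translation factors 6 fell without LH and 5 with it, where 15.5% of all named genes fell in each comparison. The largest falls were those of the ribosome recycling factor MRRF (0.80 ± 0.10, adjusted p = 2.32e-05, and 0.67 ± 0.10, adjusted p = 0.000101) and of the GTPase GUF1 (0.74 ± 0.14 and 0.78 ± 0.14). The elongation factor TUFM, which brings aminoacyl-tRNA to the ribosome, fell by 0.45 ± 0.08 (adjusted p = 0.000771) and 0.43 ± 0.08 (adjusted p = 0.000882). Its exchange factor TSFM went the other way, uncalled without LH (0.39 ± 0.13, adjusted p = 0.0534) and higher with it (0.51 ± 0.13, adjusted p = 0.0105). The initiation factor MTIF2 fell without LH and was uncalled with it (0.59 ± 0.16, adjusted p = 0.0134, against -0.34 ± 0.16, adjusted p = 0.144), and lost that call without the 3 low-spike arrays (adjusted p = 0.105).

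Among 19 factors of ribosome assembly and rRNA modification, 5 fell without LH (26.3%, beside 15.5% of all named genes and 19.3% of the brighter ones) and 8 with it (42.1%, beside 15.5% and 18.8%), and 18 and 17 had changes below 0. The endoribonuclease YBEY fell by 0.88 ± 0.12 (adjusted p = 0.000115) and 0.84 ± 0.12 (adjusted p = 0.000159). MALSU1, which acts in assembly of the large subunit, fell by 0.30 ± 0.07 (adjusted p = 0.00596) and 0.42 ± 0.07 (adjusted p = 0.00039). SPG7, a subunit of the m-AAA protease that matures MRPL32, fell by 0.42 ± 0.11 and 0.44 ± 0.11. TFB1M, which methylates the small-subunit rRNA, fell with LH (0.38 ± 0.09, adjusted p = 0.0068) and was uncalled without it (-0.13 ± 0.09).

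Of 15 genes for charging mitochondrial tRNAs, 8 fell without LH (53.3%) and 9 with it (60.0%), beside 15.5% of all named genes in each comparison. They were led by RARS2, the arginyl-tRNA synthetase, at -0.49 ± 0.11 (adjusted p = 0.00418) and -0.70 ± 0.11 (adjusted p = 0.000241). TARS2, the threonyl-tRNA synthetase, was higher with LH (0.33 ± 0.09, adjusted p = 0.012). Of 23 genes of mitochondrial protein import, the route by which the 67 proteins reach the organelle, 14 fell in each comparison (60.9%, beside the same 15.5%). The matrix chaperonin gene HSPE1 led them (-0.69 ± 0.09 and -0.63 ± 0.09), followed without LH by TIMM9 (-0.62 ± 0.08) and TOMM7 (-0.60 ± 0.08).

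Genes that act upstream of the mitochondrial ribosome fell without LH at a share near that of all named genes. Of 10 genes of mitochondrial DNA transcription and maintenance 2 fell (20.0%, beside 15.5% of all named genes), the RNA-processing genes TRMT10C (-0.37 ± 0.11) and ELAC2 (-0.32 ± 0.09), and both calls were lost without the 3 low-spike arrays (adjusted p = 0.187 and 0.0767) and without control replicate 1 (TRMT10C at 0.0551 to 0.0979 over the 6 arrays whose removal ended its call, ELAC2 at 0.0529). With LH 0 of the 10 were called by limma, with 3 at an unadjusted p under 0.05. Of 8 regulators of mitochondrial biogenesis, 1 fell without LH (12.5%), and 0 were called by limma with it, with 1 at an unadjusted p under 0.05. The called gene was MYC, which fell by 0.50 ± 0.12 (adjusted p = 0.00731) and was uncalled with LH (-0.19 ± 0.12). NRF1, a transcription factor of nuclear genes for mitochondrial proteins, was at -0.10 ± 0.09 and -0.08 ± 0.09, and the coactivator PPARGC1A at 0.20 ± 0.11 and 0.19 ± 0.11, all uncalled. The probe set of PPARGC1A was dim, below the 40th percentile of signal, so its missing call does not show that it was unchanged.

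Other groups of housekeeping genes fell as well. By symbol, 69 genes of cytosolic ribosomal proteins gave 57 that fell without LH (82.6%) and 45 with it (65.2%). These shares were above the 64.2% and 47.8% of the 67 genes and the 15.5% of all named genes in each comparison. The medians of the 69 genes were -0.25 and -0.20, close to the -0.28 and -0.22 of the 67. The respiratory chain, whose complexes take up the products of the mitochondrial ribosome, was represented by 80 nuclear genes, also taken by symbol. Of these, 65 (81.2%) and 64 (80.0%) fell, with medians of -0.36 and -0.33. The only one of the 80 to rise was NDUFA4L2, by 1.07 ± 0.28 (adjusted p = 0.013) and 1.32 ± 0.28 (adjusted p = 0.0028). It is listed through its symbol alone, which does not show that it encodes a subunit of the chain. The differences between these lists and the 67 genes were not tested.

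**Figure D5:**
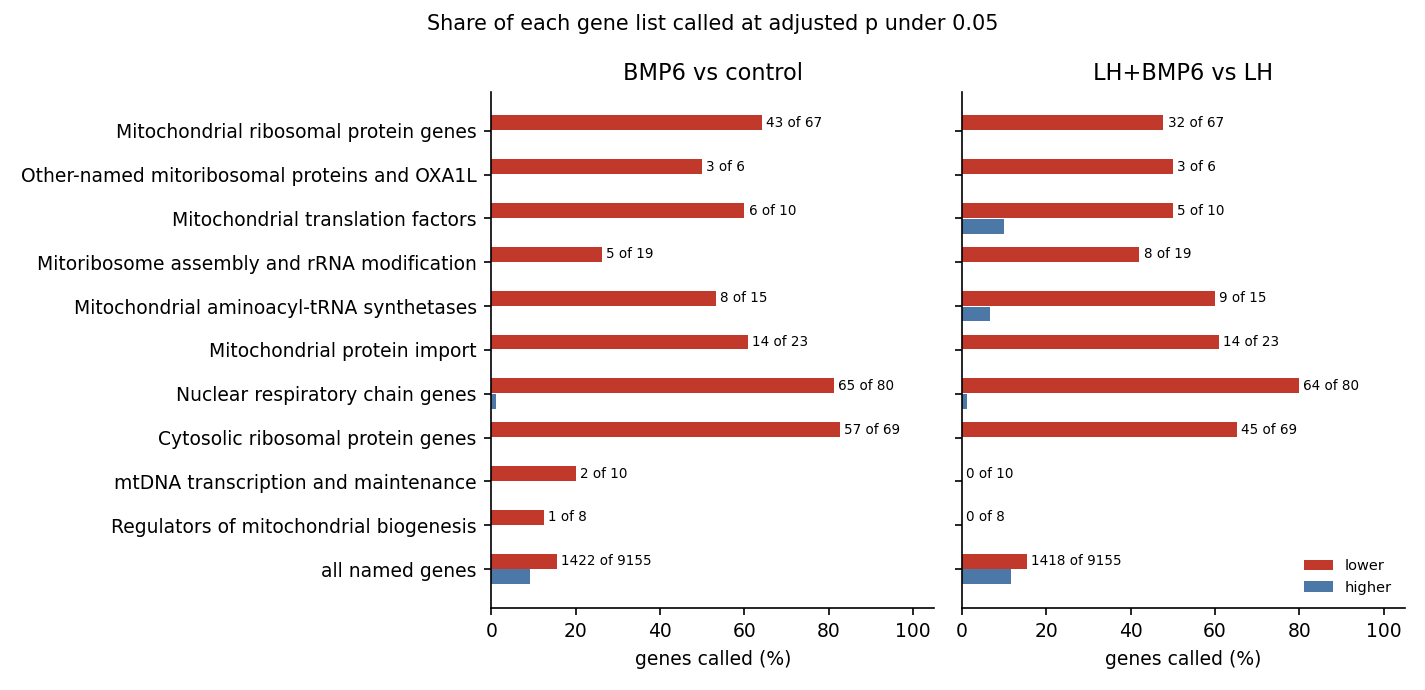
Share of genes (horizontal axis, percent) called lower (red) and higher (blue) at an adjusted p under 0.05 in each list, for BMP6 against control (left) and LH+BMP6 against LH (right), with the number called lower of those measured. The mitochondrial ribosomal protein genes (43 and 32 of 67) lie above all named genes (15.5% in each) and below the cytosolic ribosomal protein and respiratory chain genes.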

How the data were processed

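The deposited values are log2 signals that the authors computed with RMA (robust multi-array averaging), using Affymetrix Expression Console, per the submitters' processing notes. No software version is stated there. RMA scales arrays to a common distribution, so a shift shared by all transcripts would not show. The table was used as deposited, and 0 per-sample columns were left unused. Of 24128 probe sets, 112 controls were set aside and 24016 tested. The platform annotation gave 13292 of these 1 symbol, 86 several and 10638 none. All 67 genes matched RefSeq by Entrez identifier with the same symbol.

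Tests used limma 3.58.1 (R 4.3.3), with lmFit over the 16 arrays and 4 group coefficients, then eBayes with an intensity trend and Benjamini-Hochberg adjustment over 24016 probe sets in each of 5 comparisons. On simulated data with 24016 probe sets for BMP6 against control, 62 of 100 changes of 0.5 and 92 of 100 changes of 1 log2 unit were recovered. No other probe sets were shifted there, whereas 2390 were called lower and 1950 higher in the real comparison. The simulated noise was independent between arrays. These shares are therefore not the power of the real test. Precision comes from the number of arrays, 4 a group. Alternatives were eBayes without the trend, robust eBayes, dim probe sets left out, only the arrays compared, quantile normalization, array median centring, the mean of a gene's probe sets, a replicate block (fixed, or random with statmod 1.5.0), and leaving out arrays. Tables came from pandas 2.3.3 and numpy 2.4.6 under Python 3.11.15, and plots from matplotlib 3.10.9.

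Genes, lists and tests were chosen with earlier results of these data known. The rule for named genes took, in each comparison, the 12 largest rises and 12 largest falls among called genes that moved the same way in 4 of 4 replicate numbers, the 3 brightest and 3 dimmest genes, those just inside and outside the threshold, a fixed set (MRPL12, MRPS12, MRPL3, MRPS22, MRPS16, MRPL44, MRPS30, MRPL41, MRPS18B, MRPS7), genes whose probe sets were called in opposite directions (0 genes), and, from the other lists, up to 4 called genes with the largest change, with DAP3, TFAM, TUFM, PPARGC1A, MYC and NRF1. TFAM is not named by the annotation used here. MRPL14, MRPL16, MRPL20, MRPL22, MRPL32, MRPL35, MRPL38, MRPL39, MRPL45, MRPL48, MRPL52, MRPL55, MRPS6, MRPS11, MRPS18A, MRPS23, MRPS25, MRPS27, MRPS36, TARS2 and NDUFA4L2 were named after their values were seen.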

Additional observations from a re-analysis of the deposited data

Results flagged for a closer look

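Among the genes named, 48 were examined in each group of 4 arrays for 1 array far from the other 3 (a gap to the nearest array above Dixon's critical share of the group's range). This gave 9 such arrays in 192 groups, and chance gives about 1 in 20 groups. With LH, MRPL3 read 10.19 on replicate 2 against 10.42 to 10.46 on the others, MRPL10 read 8.63 on replicate 2 against 9.14 to 9.18, MRPL57 read 9.84 on replicate 1 against 9.53 to 9.54, and MRPS6 read 9.07 on replicate 3 against 8.98 to 8.99. With LH+BMP6, MRPL22 read 8.93 on replicate 4 against 9.12 to 9.15, MRPS7 read 7.90 on replicate 1 against 7.77 to 7.79, and MRPS27 read 8.19 on replicate 1 against 7.75 to 7.82. With BMP6, MRPL45 read 9.44 on replicate 2 against 9.06 to 9.09. In control, MRPS26 read 8.46 on replicate 2 against 8.34 to 8.36. The called changes of MRPL3, MRPL10, MRPL57 and MRPS27 in LH+BMP6 against LH, and that of MRPS26 in BMP6 against control, were also called without the array concerned.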

How the results depend on the processing

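The number of genes that fell in BMP6 against control was 40 to 47 under the settings that kept all arrays, 25 with the 3 low-spike arrays left out, and 25 to 41 when 1 array or 1 replicate number was left out. In LH+BMP6 against LH it was 25 to 34, 27 and 23 to 34. The comparisons of LH and the interaction kept 0 called genes by limma throughout. The replicate block gave 47 and 34 genes. Same-numbered arrays of BMP6 and control deviated together at a mean r of 0.04 (from -0.11 to 0.15), with 1 of 4 pairs over 0.1. The mean r was 0.20 for LH+BMP6 and LH, 0.16 for LH and control and 0.38 for LH+BMP6 and BMP6. In each of these, 3 of 4 pairs were over 0.1. Of 8 arrays, 4, 7, 5 and 5 in this order were closest to the other group's array of their own number. Arrays of 1 number were thus alike in part, and the labels do not tie the number to the experiment array by array. The replicate number was therefore used as a block only in an alternative. Among the named genes, those whose change turned sign were uncalled either way. On leaving out arrays in BMP6 against control, MRPL14 ran from -0.018 to 0.083, MRPL32 from -0.093 to 0.11, MRPL38 from -0.079 to 0.033 (0.0009 after quantile normalization), MRPS25 from -0.020 to 0.072 and DAP3 from -0.011 to 0.055. In LH+BMP6 against LH, MRPL14 ran from -0.18 to 0.044 (0.095 with the mean of its probe sets), MRPL15 from -0.15 to 0.15, MRPL32 from -0.014 to 0.14, MRPL38 from -0.061 to 0.074, MRPS2 from -0.11 to 0.019 and NRF1 from -0.14 to 0.0010. The lower counts on leaving out arrays come with fewer samples, and other causes were not tested.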
